A study of Mus musculus with 30 samples.

Results

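The transcripts of haemoglobin and of 4 further red cell genes were followed through 30 bulk RNA-seq libraries from mouse tumours. They were used to describe the red cell RNA in each library and its spread within lines, and which cells gave them was not tested. The 8 genes were taken by their symbols: Hba-a1, Hba-a2, Hbb-bs, Hbb-bt, Alas2, Bpgm, Slc4a1 and Fech. All 8 were found among the 55291 symbols of the deposited table of TPM (a length-corrected share of all transcripts in a library, scaled to a sum of 1000000), and all 8 passed the filter of 1 TPM in at least 3 libraries. The libraries came from 10 tumour lines grown under the skin, with 3 libraries per line. MC38 is a colon carcinoma and MC38OVA its derivative with ovalbumin, LL2 is Lewis lung carcinoma, and B16F1 and B16F10 are sublines of 1 melanoma. These 5 lines originate from C57BL/6 mice. CT26 is a colon carcinoma and CT26NYESO1 its derivative with the human antigen NY-ESO-1, EMT6 is a mammary carcinoma, CMS5a a fibrosarcoma and Renca a renal carcinoma. These 5 originate from BALB/c mice. Per the labels' protocols, hosts were BALB/cJ or C57BL/6J mice, tumours were harvested once 10 mm long, and mice received or did not receive the streptococcal preparation OK-432 in the tumour for 24 hours. The labels tie neither the host strain nor OK-432 to single libraries, so both are unknown for every value here. Nothing states that the 3 libraries of a line came from separate mice, so p-values measure only the spread between these libraries, which may be technical.

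Mature red cells of mice have no nucleus, but young ones (reticulocytes) still carry messenger RNA, most of it for the alpha and beta chains of haemoglobin. Each haemoglobin molecule joins alpha chains, from the paired genes Hba-a1 and Hba-a2, with beta chains, from Hbb-bs and Hbb-bt, and holds haem, an iron porphyrin. Alas2 makes the first and rate-limiting step of haem synthesis in red cell precursors, and Fech inserts the iron in the last step in all cells that make haem. Bpgm makes 2,3-bisphosphoglycerate, which lowers the oxygen affinity of haemoglobin, and Slc4a1 (band 3) is the chloride and bicarbonate exchanger of the red cell membrane.

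The transcripts of Hba-a2, Hbb-bs, Hbb-bt and Alas2 moved together, and that of Bpgm followed them in part. The promoters of these 5 genes are shown, and their part in the levels was not tested. Each is the stretch of 250 bases before the RefSeq start site on GRCm38.p6, written 5′ to 3′ on the gene's own strand. Capitals mark 4 motifs searched on both strands: a GATA hexamer (GATA with A or T before it and A or G after it), the CACCC box, the CCAAT box and the TATA-like ATATAA. No matches overlapped.
Hba-a2 (chr11:32296242-32296491, plus strand): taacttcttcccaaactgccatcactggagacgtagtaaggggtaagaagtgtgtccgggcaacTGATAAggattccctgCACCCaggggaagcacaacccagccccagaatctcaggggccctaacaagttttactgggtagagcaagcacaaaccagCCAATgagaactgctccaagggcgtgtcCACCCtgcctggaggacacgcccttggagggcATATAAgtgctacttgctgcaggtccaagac
Hbb-bs (chr7:103827929-103828178, minus strand): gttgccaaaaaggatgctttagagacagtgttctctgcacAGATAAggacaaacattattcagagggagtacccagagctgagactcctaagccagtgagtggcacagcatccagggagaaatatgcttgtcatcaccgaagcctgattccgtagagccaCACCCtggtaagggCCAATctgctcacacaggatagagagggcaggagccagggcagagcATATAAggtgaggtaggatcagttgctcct
Hbb-bt (chr7:103813924-103814173, minus strand): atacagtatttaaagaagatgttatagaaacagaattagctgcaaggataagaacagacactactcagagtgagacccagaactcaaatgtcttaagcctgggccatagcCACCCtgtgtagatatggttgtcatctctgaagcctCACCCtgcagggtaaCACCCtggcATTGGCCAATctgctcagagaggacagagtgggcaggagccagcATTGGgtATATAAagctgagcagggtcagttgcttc
Alas2 (chrX:150547167-150547416, plus strand): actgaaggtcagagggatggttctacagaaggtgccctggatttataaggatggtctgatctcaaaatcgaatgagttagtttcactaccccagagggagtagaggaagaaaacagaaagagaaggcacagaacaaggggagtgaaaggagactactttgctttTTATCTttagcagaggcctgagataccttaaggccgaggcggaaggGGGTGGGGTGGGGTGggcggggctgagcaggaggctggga
Bpgm (chr6:34476106-34476355, plus strand): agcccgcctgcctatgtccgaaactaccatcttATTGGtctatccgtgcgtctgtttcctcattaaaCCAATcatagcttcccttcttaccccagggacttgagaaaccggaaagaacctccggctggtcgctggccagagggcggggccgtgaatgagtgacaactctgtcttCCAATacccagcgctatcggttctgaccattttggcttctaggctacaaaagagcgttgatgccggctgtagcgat

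In 32851 RefSeq promoters of the same length, 26.5% held a GATA hexamer, 52.0% CACCC, 33.8% CCAAT and 9.10% ATATAA. The promoter of Hba-a2 held 1 GATA hexamer, 2 CACCC, 1 CCAAT and 1 ATATAA. Hbb-bs held 1 of each motif. Hbb-bt held no GATA hexamer, 3 CACCC, 3 CCAAT and 1 ATATAA. Alas2 held 1 GATA hexamer and 3 CACCC, each read on the opposite strand, and neither of the other motifs. Bpgm held 3 CCAAT and none of the other motifs. A match of letters is a description and not a bound site. Promoters were taken for 6 of the 8 genes, and those of Slc4a1 and Fech are not reported here. The entry of Hba-a1 runs past the start into the gene. It is not printed because it was identical to that of Hba-a2 at all 297 bases compared, offset by 3 bases.

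The genes lie at chr11:32283511-32284465 (Hba-a1), chr11:32296489-32297298 (Hba-a2), chr7:103826534-103828096 (Hbb-bs), chr7:103812524-103813996 (Hbb-bt), chrX:150547375-150570638 (Alas2), chr6:34476207-34505613 (Bpgm) and chr11:102348824-102366203 (Slc4a1) in GENCODE M21 on mm10, the build of the deposited values. The position of Fech is not reported here. The paired globin genes share much of their sequence. Of all stretches of 75 bases in the Hba-a2 transcript, 81.0% also occur in Hba-a1, and 64.3% of those in Hbb-bs also occur in Hbb-bt. The sources used here do not say how reads that fit both copies were assigned, so the split within a pair is uncertain and the sum of a pair is the safer value.

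The libraries are labelled as CD45+ immune cells infiltrating the tumours, while the stated protocol describes RNA from a digested single cell suspension and names no sorting step. Ptprc, which encodes CD45, was present in all 30 libraries at 2.7 to 215 TPM, lowest on average in B16F10 (5.39 TPM) and highest in MC38OVA (154 TPM). The 8 melanocyte genes summed to between 1526 and 13899 TPM in the 6 libraries of the B16 lines, against 23.5 TPM at most in all others. Depth is unknown, because TPM keeps no read number. Mitochondrial transcripts took 9.17% to 39.0% of TPM. Replicate 2 of B16F1 stood apart from the other 2 of its line by its mitochondrial share of 39.0% (against 12.1% and 18.6%) and its summed melanocyte genes of 1526 TPM (against 7406 and 5078). Replicate 3 of MC38 had a mitochondrial share of 27.5%, against 13.8% and 14.3%.

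Haemoglobin transcripts were present in every library, at levels that ranged over 347-fold. The 4 adult globin genes together took 0.0222% of all TPM in the lowest library (B16F1 replicate 1), 0.718% in the median library and 7.70% in the highest (B16F10 replicate 2). B16F10 had the highest mean, 4.21% ± 3.21 (SD, n = 3), from single libraries of 1.38%, 7.70% and 3.55%. CMS5a followed with 3.16% ± 0.957, from 2.20%, 3.16% and 4.12%. Without replicate 2 the mean of B16F10 was 2.46%, below that of CMS5a. These were the 2 lines with most haemoglobin RNA, and their ranges overlapped. MC38 came next at 1.74% ± 1.84, from 0.648%, 0.705% and 3.86%, and its mean without replicate 3 was 0.677%.

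4 lines lay close together in the middle. CT26NYESO1 measured 1.26%, 1.09% and 0.541%, and EMT6 1.44%, 0.508% and 0.780%. CT26 measured 0.488%, 1.27% and 0.911%, and Renca 1.17%, 0.731% and 0.430%. Neighbouring lines overlapped throughout this upper group of 7 lines.

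The remaining 3 lines held little haemoglobin RNA. MC38OVA measured 0.222%, 0.153% and 0.143%, and LL2 0.209%, 0.172% and 0.0736%. B16F1 measured 0.0222%, 0.391% and 0.0375%, so its mean of 0.150% rests on replicate 2 and was 0.0298% without it. The step from Renca down to MC38OVA was the only one between neighbouring lines whose ranges did not overlap. In such bulk samples, fewer red cells and less RNA per red cell cannot be told apart. Nor can the blood held by a tumour be told from red cells kept or lost while the suspension was prepared.

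**Figure D1:**
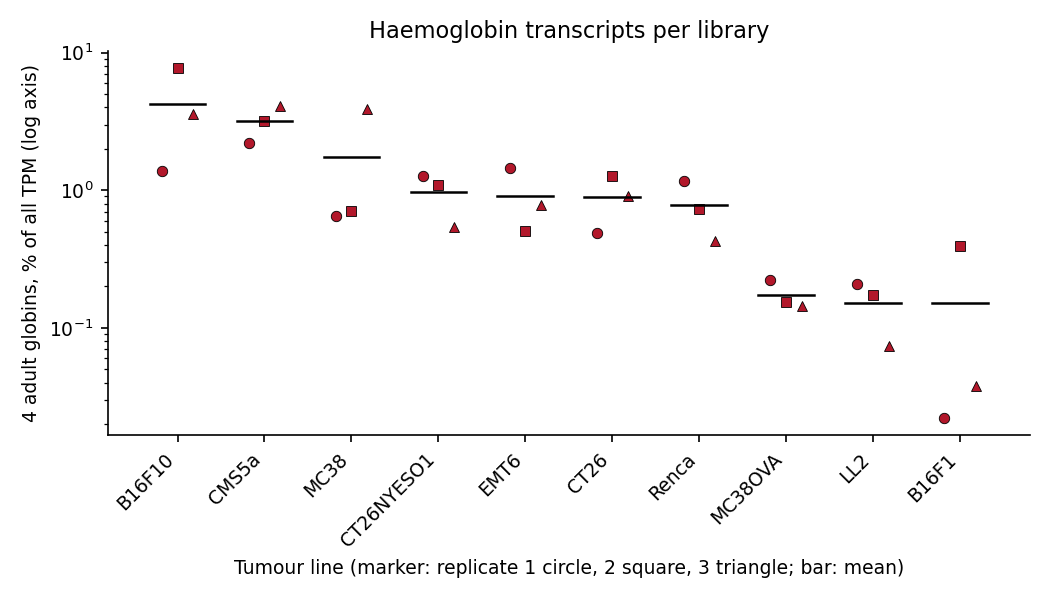
Share of all TPM in the 4 adult globin genes (log axis) for each library, by tumour line in order of the line mean. Markers are the 3 libraries of a line and bars their mean; B16F10 and CMS5a lie highest, MC38OVA, LL2 and B16F1 lowest, and single libraries of MC38 and B16F1 lie far above the other 2 of their line.

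The alpha chain genes had the same lines at both ends. Hba-a1 stood at 3396, 17738 and 8730 TPM in B16F10 and at 5656, 8512 and 10420 TPM in CMS5a. In B16F1 it stood at 62.0, 1148 and 105 TPM, in LL2 at 583, 499 and 207 TPM, and in MC38OVA at 597, 433 and 415 TPM. All 9 libraries of these 3 low lines lay below all 6 libraries of the 2 high lines. Hba-a1 is part of the haemoglobin share that ordered the lines, so this is no separate result. Listed values of Hba-a2 lay close to those of Hba-a1, which made up 47.7% to 49.8% of the alpha chain TPM in all 30 libraries. As the copies share much of their sequence, this split is uncertain and does not show that they vary together.

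Hbb-bs, the more abundant of the beta chain genes, stood at 4807, 28745 and 12570 TPM in B16F10 and at 7497, 10291 and 14655 TPM in CMS5a. Its values were 72.1, 1150 and 120 TPM in B16F1, 636, 514 and 225 TPM in LL2, and 731, 460 and 428 TPM in MC38OVA. In MC38 it stood at 2156, 2471 and 12537 TPM, so that replicate 3 reached the level of CMS5a while the other 2 lay with the middle lines. Hbb-bt, its neighbour on the chromosome, ranged from 24.6 TPM (B16F1 replicate 1) to 11884 TPM (B16F10 replicate 2), with a median of 821 TPM.

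Differences among the 10 lines were tested with limma on log2(TPM + 1) across 17944 genes, with p-values adjusted by the Benjamini-Hochberg method. A call needed an adjusted p under 0.05 and a log2 difference of at least 1. Over the 10 lines all 8 genes were called, where 85.5% of all genes tested were called too, so the count of members says little by itself. The size of the differences was uneven. Line means of Hbb-bt spanned 5.99 on the log2 scale, those of Hbb-bs 5.79, Alas2 5.43, Hba-a2 5.39 and Hba-a1 5.35. Bpgm spanned 2.81, Slc4a1 2.15 and Fech 1.36. The adjusted p of this F test from limma ran from 3.1e-07 (Bpgm) to 0.0072 (Fech).

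Every line was then compared with the average of the remaining 9, which made 80 tests of the 8 genes and gave 31 calls. In B16F10, 7 of 8 genes were higher, where 5.28% of all genes were called higher. Hbb-bt rose by 3.0 ± 0.58 (log2 fold change ± SE, adjusted p = 7.0e-05), Hbb-bs by 2.82 ± 0.57, and Hba-a1 and Hba-a2 by 2.54 each. Alas2 rose by 2.76 ± 0.53, Bpgm by 2.02 ± 0.27 and Slc4a1 by 1.44 ± 0.36. The call of Slc4a1 was lost without replicate 2 of B16F10 (0.89, adjusted p = 0.057). Fech stood at 0.33 ± 0.25 and was not called.

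In CMS5a, 6 of 8 genes were higher, where 9.23% of all genes were. The globins rose by 2.51 (Hba-a1) to 2.59 (Hbb-bs, adjusted p = 5.5e-04), Alas2 by 2.41 ± 0.53 and Bpgm by 1.03 ± 0.27. The call of Bpgm lay at the edge of the fold threshold and was lost with median-ratio scaling (0.87) and without any 1 of 4 libraries: B16F10 replicate 1, CMS5a replicate 3, CT26 replicate 1 and MC38 replicate 1. Slc4a1 (0.60 ± 0.36) and Fech (0.78 ± 0.25) were not called.

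The globins and Alas2 were lower in each of the 3 low lines; these comparisons share libraries and are not independent. In B16F1, the 4 globins and Alas2 fell, where 13.2% of all genes were called lower. Their log2 fold changes were -3.66 ± 0.58 for Hbb-bt, -3.62 ± 0.57 for Hbb-bs (adjusted p = 5.5e-06), -3.44 for Hba-a2, -3.41 for Hba-a1 and -3.27 ± 0.53 for Alas2. Without replicate 2 of B16F1, the difference of Hba-a1 widened to -4.68. Bpgm in B16F1 was not lower, at 0.47 ± 0.27. In LL2, 6 of 8 genes were lower against 6.53% of all genes: Hbb-bs stood at -2.56 ± 0.57, Hbb-bt at -2.46, both Hba genes at -2.31, Alas2 at -1.95 ± 0.53 and Bpgm at -1.10 ± 0.27. The Bpgm call was lost without replicate 3 of LL2 (-0.96). In MC38OVA, 5 of 8 genes were lower against 3.59% of all genes: Hbb-bs stood at -2.20 ± 0.57, Hbb-bt at -2.17, both Hba genes at -2.00 and Alas2 at -1.84 ± 0.53.

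2 lines had 1 call each. In MC38, where 8.24% of all genes were higher, only Alas2 was called (1.49 ± 0.53, adjusted p = 0.025), with globins at 1.04 to 1.12 and not called. That call was lost without replicate 3 of MC38 (0.58, adjusted p = 0.43), with median-ratio scaling (adjusted p = 0.084) and with no filter on low genes (adjusted p = 0.068). Without replicate 2 of B16F1, 5 of the 8 were called in MC38, the globins at 1.18 to 1.25 among them (adjusted p = 0.029 to 0.037). In Renca, where 12.4% of all genes were higher, Slc4a1 alone was called (1.22 ± 0.36, adjusted p = 0.0050). In EMT6, CT26 and CT26NYESO1 limma called none of the 8, where 14.9%, 13.2% and 12.6% of all genes were called in either direction. At an unadjusted p under 0.05 there were 0, 1 and 1 genes in these 3 lines. Bpgm was that gene, at -0.87 ± 0.27 in CT26 and -0.95 ± 0.27 in CT26NYESO1, under the fold threshold. It was called in CT26 without replicate 2 (-1.16). In CT26NYESO1 it was called under median-ratio scaling and under rescaling (-1.07 each) and without replicate 1 or 2 (-1.02 and -1.0).

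**Figure D2:**
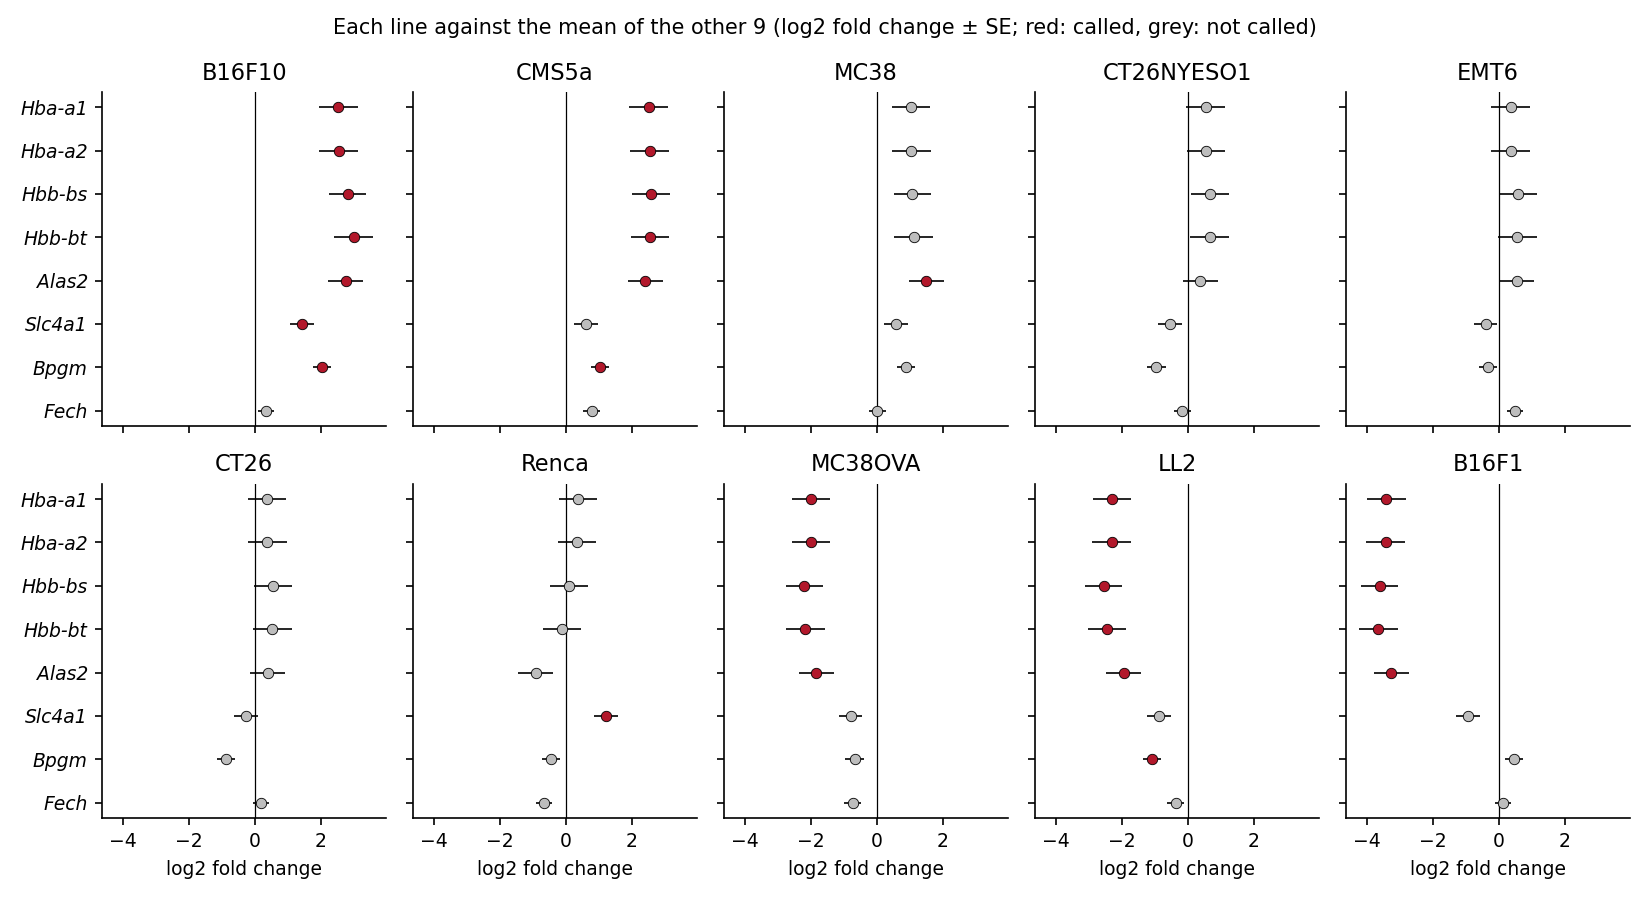
Log2 fold change (x axis) with its SE for the 8 genes for every line relative to the average of the remaining 9, in the order of the haemoglobin share. Red points were called and grey points were not; the 4 globins and Alas2 move as a block in each line except Renca, where Alas2 lies at -0.91 and Slc4a1 at 1.22, while Fech was called in no line.

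Alas2 followed haemoglobin across libraries and lines. It stood at 68.1, 485 and 203 TPM in B16F10, at 112, 171 and 181 TPM in CMS5a and at 40.1, 49.8 and 304 TPM in MC38. It was lowest in B16F1, at 1.52, 16.7 and 0.918 TPM. In MC38 and B16F1 the library with the most haemoglobin RNA also had the most Alas2. Pearson's r between the logs of Alas2 and of the summed globins was 0.96 over 30 libraries, 0.98 over the 10 line means and 0.91 over the deviations of libraries from their line means. These values describe libraries that share normalisation to a common total, and carry no test.

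Set against haemoglobin, Alas2 kept a narrow range outside Renca. In the 27 libraries of the other 9 lines there were 2.45 to 7.86 TPM of Alas2 per 1000 TPM of globin, with a median of 5.37, while globin itself ranged over 347-fold in these same libraries. The 3 Renca libraries had 0.976, 4.02 and 4.12. Replicate 1 of Renca was the only library of 30 under 2. Renca against the other 9 lines differed in Alas2 by -0.91 ± 0.53 (adjusted p = 0.14), which was not called.

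Slc4a1 was a low transcript, at or above 1 TPM in 10 of 30 libraries, with a range of 0.0143 to 9.0 TPM. It reached 1.40, 9.0 and 3.32 TPM in B16F10, 0.14, 0.80 and 8.95 TPM in MC38, and 0.83, 2.43 and 2.46 TPM in CMS5a. In LL2 it stood at 0.16, 0.07 and 0.08 TPM and in B16F1 at 0.02, 0.15 and 0.01 TPM. Lines rich in haemoglobin RNA thus lay above lines poor in it. On log2(TPM), with nothing added, r with the summed globins was 0.88 over 30 libraries. On log2(TPM + 1), r with Hbb-bs was 0.73. The fold change of so low a gene is understated on the log2(TPM + 1) scale, and with a pseudocount of 0.1 the difference in B16F1 went from -0.95 (not called) to -2.49 (adjusted p = 0.0011, called).

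Renca stood apart from this pattern. Its 3 libraries had 2.84, 3.08 and 3.44 TPM of Slc4a1, the narrowest spread of any line with over 1 TPM, at haemoglobin shares that were only middling. Per 1000 TPM of globin that was 0.242, 0.422 and 0.800, above all 27 other libraries, which reached 0.232 at most (MC38 replicate 3). Slc4a1 also has a kidney form made by acid-secreting cells of the collecting duct, and the deposited table does not separate forms. Which cells of the Renca samples gave these transcripts was not tested.

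**Figure D3:**
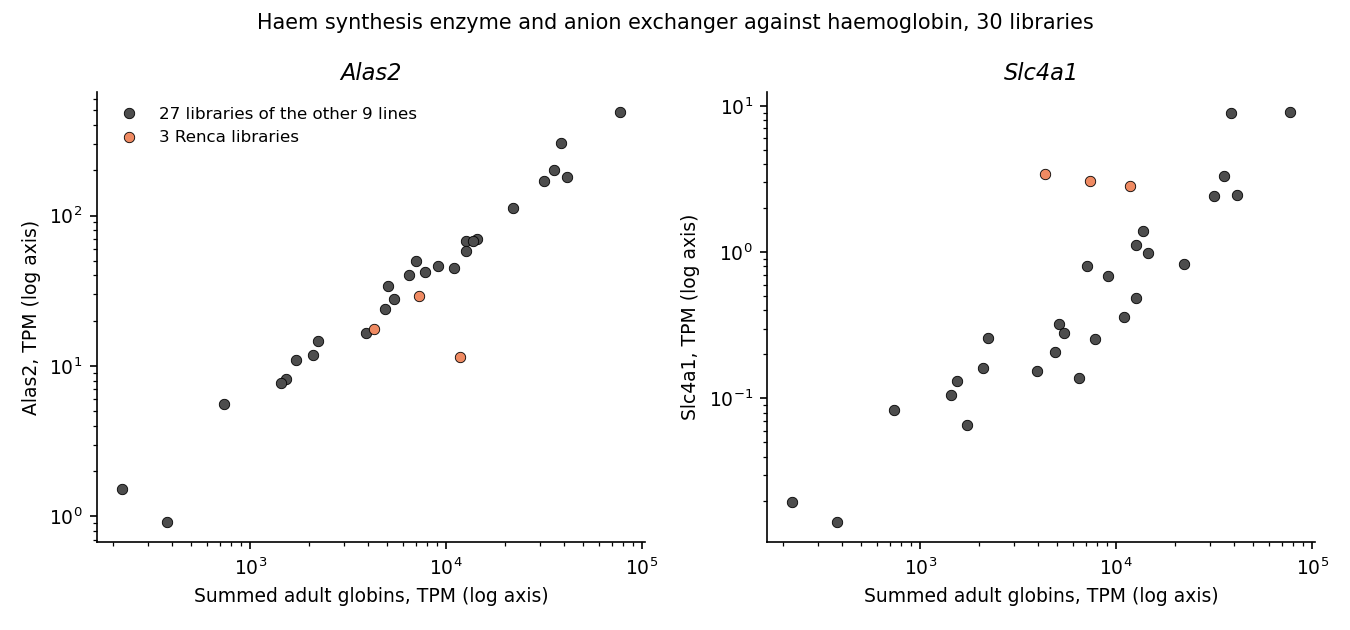
Alas2 (left) and Slc4a1 (right) in TPM against the summed adult globins in TPM, all on log axes, for 30 libraries. The 27 dark points rise with haemoglobin in both panels; the 3 Renca points include 1 far below the others for Alas2 and lie above the others at like haemoglobin for Slc4a1.

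Bpgm was expressed in all libraries and followed haemoglobin in part. It stood at 53.4, 177 and 88.7 TPM in B16F10, at 40.2, 49.8 and 63.7 TPM in CMS5a and at 28.2, 35.3 and 93.7 TPM in MC38. The library with the most haemoglobin RNA was the highest for Bpgm in each of these 3 lines. In B16F1, at the bottom for haemoglobin, Bpgm stood at 46.9, 30.6 and 30.1 TPM, below only B16F10, MC38 and CMS5a in its mean, and the library with most haemoglobin was not the highest. LL2 had the lowest mean, 12.8 ± 2.99 TPM. Pearson's r with the summed globins was 0.54 over libraries, 0.52 over line means and 0.59 over deviations.

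Fech, which all haem-making cells use, varied least. It ranged from 10.1 TPM (Renca replicate 1) to 55.1 TPM (CMS5a replicate 2), a 5.48-fold range. Line means ran from 17.6 ± 6.74 TPM in MC38OVA to 45.1 ± 8.74 TPM in CMS5a, and each line overlapped the next in that order. Its r with the summed globins was 0.31 over libraries, 0.54 over line means and -0.19 over deviations.

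**Figure D4:**
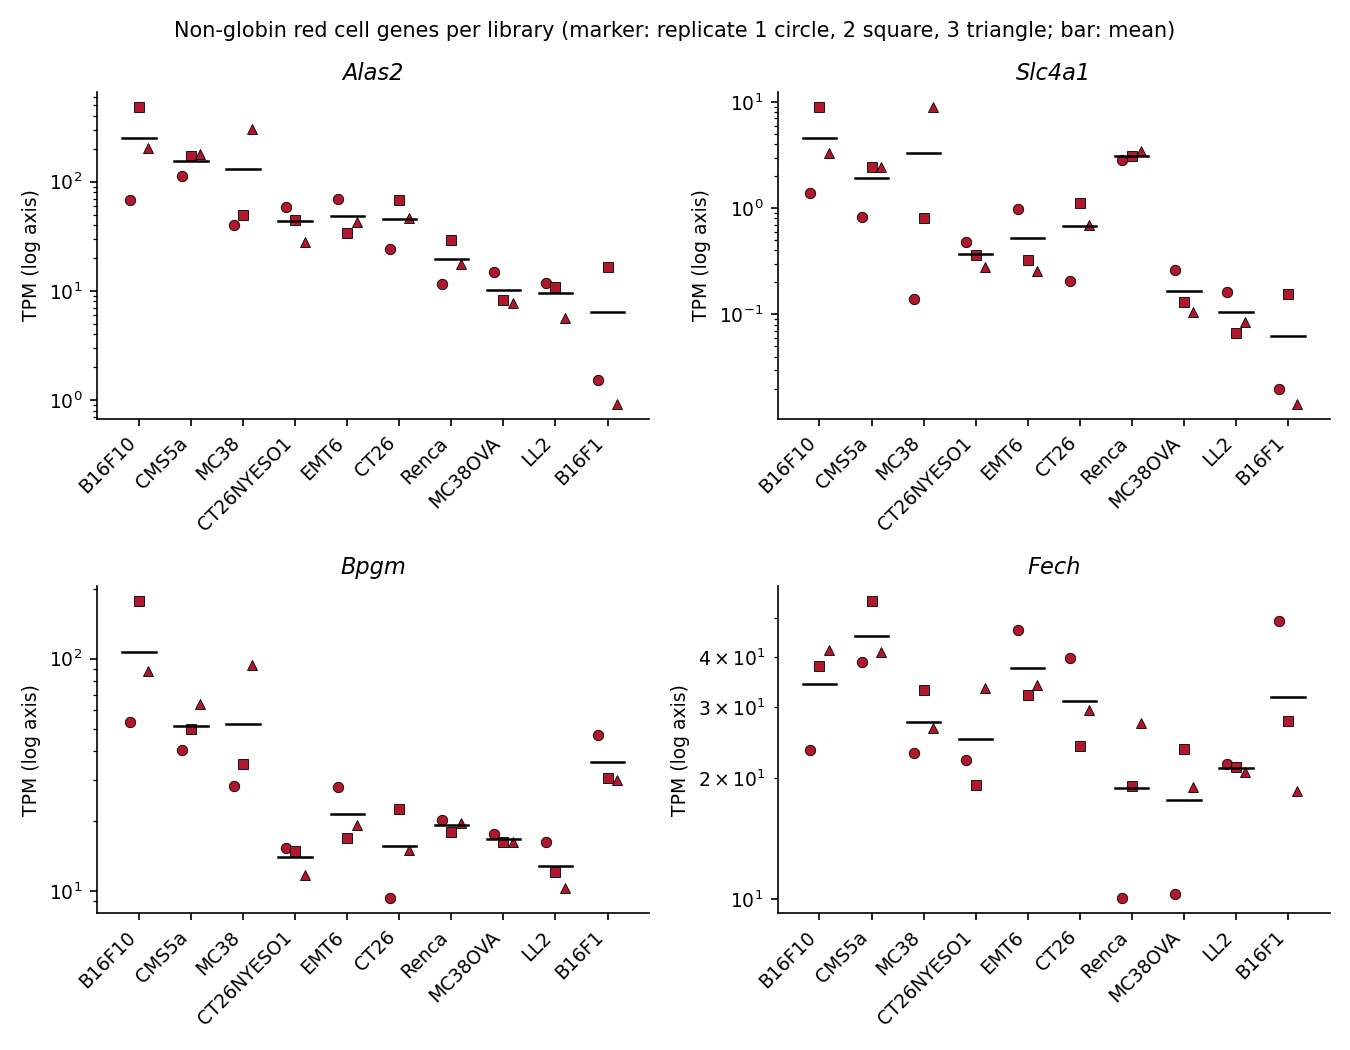
TPM (log axes) of Alas2, Slc4a1, Bpgm and Fech in each library, by line in the order of the haemoglobin share; markers are libraries and bars line means. Line means of Alas2 fall from 252 TPM in B16F10 to 6.37 TPM in B16F1; Slc4a1 falls too, with Renca above its neighbours, Bpgm is raised again in B16F1 and Fech shows little order.

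Within lines, globin transcripts differed more between replicates than those of almost all other genes. The residual SD of log2(TPM + 1) around the line means was 1.08 for Hbb-bt, Hba-a1 and Hba-a2, 1.05 for Hbb-bs and 0.98 for Alas2, against a median of 0.285 over the 17944 genes. Only 32 genes had a larger SD than Hbb-bt, and 52 a larger one than Alas2. Slc4a1 had 0.66, with 281 genes above it, Bpgm 0.49, with 6.27% of genes above it, and Fech 0.44, with 9.79%. The highest library of a line had 17.6 times the haemoglobin share of the lowest in B16F1, 5.96 times in MC38 and 5.59 times in B16F10. LL2 and EMT6 had 2.84 times each, Renca 2.73, CT26 2.59, CT26NYESO1 2.33, CMS5a 1.87 and MC38OVA 1.55 times. Over deviations of all 30 libraries from line means, r of the haemoglobin sum was 0.59 with the mitochondrial share of TPM and -0.81 with the summed melanocyte genes. Outside the B16 lines the melanocyte genes summed to 23.5 TPM at most, so most of these libraries held little melanocyte RNA. Replicate 2 of B16F1 had the most haemoglobin RNA and the lowest melanocyte sum of its line. The part of both measures in the spread was not tested.

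3 pairs of lines share an origin, and 11 of their 24 tests were called. B16F10 had more than B16F1 of 7 of the 8 genes, where 4.53% of all genes were higher. Hbb-bt differed by 5.99 ± 0.78 (log2, adjusted p = 6.3e-07), Hbb-bs by 5.79 ± 0.76, Alas2 by 5.43 ± 0.71, and Hba-a2 and Hba-a1 by 5.38 and 5.35. The lowest B16F10 library (1.38% haemoglobin) lay above the highest B16F1 library (0.391%). Slc4a1 differed by 2.15 ± 0.48 and Bpgm by 1.40 ± 0.37; the Bpgm call was lost without replicate 2 of B16F10 (0.95, adjusted p = 0.050). Fech differed by 0.18 ± 0.34 and was not called. Without replicate 2 of B16F1 the same 7 genes were called, with Hba-a1 at 6.63 and Hbb-bt at 7.24.

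MC38OVA had less than MC38 of 4 genes, where 0.167% of all genes were lower: Alas2 stood at -2.99 ± 0.71 (adjusted p = 0.026), Hbb-bt at -2.96 ± 0.78, Hbb-bs at -2.95 ± 0.76 and Bpgm at -1.39 ± 0.37 (adjusted p = 0.044). Hba-a1 and Hba-a2 stood at -2.74 (adjusted p = 0.064). The haemoglobin shares of the 2 lines did not overlap, 0.143% to 0.222% against 0.648% to 3.86%. All 4 calls were lost under median-ratio scaling, rescaling without mitochondrial and globin transcripts, a pseudocount of 0.1 or no filter, and without replicate 2 or 3 of either line. Under the 4 changes of processing the differences moved little, with Hbb-bs at -2.95 to -2.90 and Alas2 at -3.10 to -2.94, and adjusted p of 0.058 to 0.12 for the 4 genes. Without replicate 3 of MC38, Hbb-bs stood at -2.14 (adjusted p = 0.15), Alas2 at -2.08 and Bpgm at -0.88. Hba-a1 and Hba-a2, unchanged in value, were called without replicate 1 (adjusted p = 0.043 each) or 2 (adjusted p = 0.017 each) of B16F1, which enters only through the shared spread. Other outside libraries acted the other way. The calls of Hbb-bt and Bpgm, unchanged in value, were both lost (adjusted p of 0.051 to 0.054 by limma) without any 1 of the following libraries. These were CMS5a replicate 2, CT26 replicate 3, each CT26NYESO1 library, EMT6 replicate 3 and Renca replicate 2. CT26NYESO1 and CT26 differed by -0.32 (Fech) to 0.16 (Hba-a2), and limma called none of the 8, also at an unadjusted p under 0.05, where 2.27% of all genes were called. The 95% interval of that difference, from limma, was -1.46 to 1.69 for Hbb-bs and -0.83 to 0.68 for Bpgm.

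The difference between the 2 antigen pairs, each against its parent line, was tested as an interaction. Values ran from -3.08 (Hbb-bt) to -0.36 (Fech). None of the 8 was called by limma (adjusted p of at least 0.12), though 6 had an unadjusted p under 0.05, where 2.62% of all genes were called in either direction. Without replicate 2 of B16F1, which is in neither pair but adds to the shared estimate of the spread, 3 genes were called.

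By strain of origin, the 5 BALB/c lines had higher log2 means than the 5 C57BL/6 lines for 5 genes, where 6.82% of all genes were higher: Hbb-bs by 1.61 ± 0.34, Hbb-bt by 1.5 ± 0.35, Hba-a2 by 1.5, Hba-a1 by 1.49 and Alas2 by 1.01 ± 0.32. The Alas2 call was lost under median-ratio scaling (0.85), under rescaling (0.90) and without any 1 of 15 libraries. The lines, not the libraries, are the units of this contrast, while these SEs and calls rest on the spread within lines only. They therefore cannot show a difference between strains of origin, and no test over line means was made for these levels. The 5 C57BL/6 lines include both the highest line, B16F10, and the 3 lowest. On the linear scale the groups were close or the other way round, with mean Hba-a1 of 3504 against 3175 TPM but Hbb-bt of 1628 against 1830 TPM and Alas2 of 62.5 against 81.8 TPM. Bpgm stood at -0.57 ± 0.16 and was not called.

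The balance of the chains differed between lines. The ratio of alpha to beta TPM ran from 0.895 (B16F10 replicate 2) to 1.81 (Renca replicate 1). Line means were 1.48 in Renca, 1.38 in LL2, 1.37 in B16F1 and 1.36 in MC38OVA, then 1.17 in MC38, 1.16 in CMS5a, 1.11 in CT26NYESO1, 1.08 in CT26, 1.05 in EMT6 and 0.978 in B16F10. The 3 lines with least haemoglobin thus had 3 of the 4 highest ratios. Every line overlapped the next in this order. Over the 10 line means r between the logs of the ratio and of the haemoglobin sum was -0.71, over 30 libraries -0.53, and over deviations from line means 0.18. No test was made of this relation, whose axes share the same alpha and beta values.

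**Figure D5:**
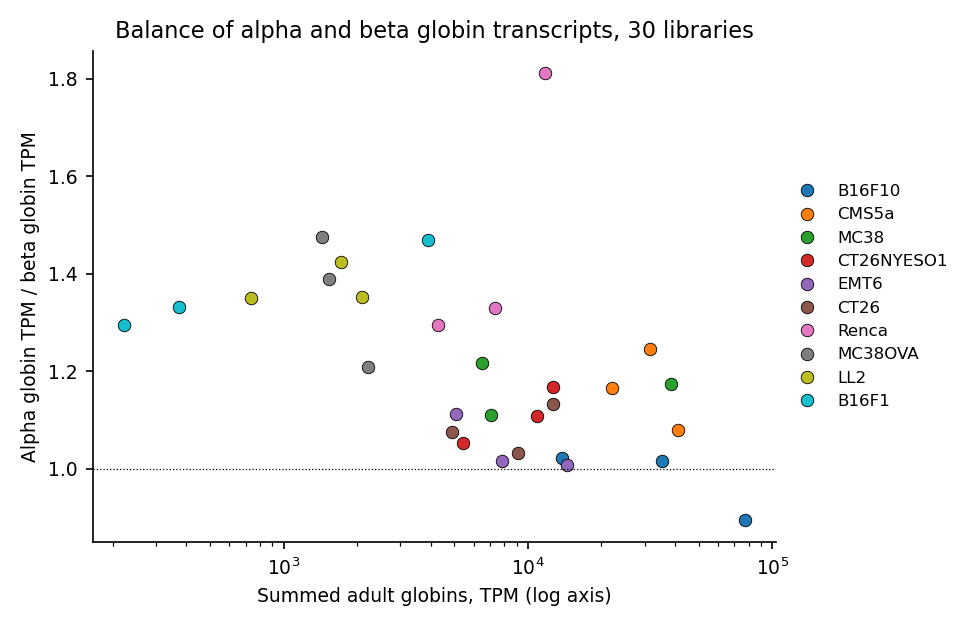
Ratio of alpha to beta globin TPM (y axis) against the summed adult globins in TPM (log x axis) for 30 libraries, coloured by line; the dotted line marks a ratio of 1. Libraries of LL2, B16F1 and MC38OVA lie at 1.21 to 1.48 on the left, B16F10 near 1 on the right, and Renca replicate 1 stands alone at 1.81.

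The split of the beta chain also differed. Strains of mice carry different forms of the beta globin locus: the reference genome holds that of C57BL/6, and BALB/c mice carry another. Hbb-bt made up 29.1% of beta TPM in B16F10, 27.9% in LL2, 27.3% in MC38, 27.1% in MC38OVA and 26.1% in B16F1. It made up 26.6% in each of CT26NYESO1, CT26 and EMT6, 26.4% in CMS5a and 24.2% in Renca. The mean was 26.1% ± 1.06 over BALB/c lines and 27.5% ± 1.11 over C57BL/6 lines (SD, n = 5 each), a difference of -1.44 points (exact two-sided permutation p = 0.048, smallest possible 0.0079). Counting related lines once, as 7 families, gave -1.65 points (exact p = 0.029, the smallest that 35 splits allow). The call was lost on leaving out any 1 of 8 libraries, with the largest exact p, 0.16, without replicate 3 of MC38. How reads of the BALB/c form were assigned on this reference was not tested.

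Other genes of red cells moved with the globins only in part. The lists cover other globins, haem synthesis, the membrane skeleton, regulators and late enzymes, and 40 of their 55 genes passed the filter. In B16F10, 8 of these were higher than in the other 9 lines, where 5.28% of all genes were. They included Tmod1 (3.91, tropomodulin of the membrane skeleton), Tfrc (1.48, the transferrin receptor), Hbq1b (1.45), Trim10 (1.43), Tent5c (1.35) and Hbq1a (1.10, a theta globin). The count was 13 under median-ratio scaling, which moved the median of all genes in this contrast by 0.50, and 5 without replicate 2 of B16F10. Lower there, as 23.2% of all genes were, were Aqp1 (-5.17, a water channel also made by endothelium), Slc25a37 (-2.08, the iron importer of mitochondria), Lmo2 (-1.93), Epor (-1.37, the erythropoietin receptor), Nfe2 (-1.14) and Alad (-1.11, the second enzyme of haem synthesis).

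Tmod1 did not keep the order of the globins: it was higher in both B16 lines (1.70 in B16F1), whose haemoglobin lay at opposite ends. In CMS5a, Hbq1a (1.0), Hbq1b (1.06), Alad (1.31) and Epor (1.04) were also higher, and Rhd (-1.47) and Tfrc (-1.22) lower.

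Of 11 regulators of red cell genes, 8 passed the filter, and levels ran from near 0 upwards (genes named here were picked after their values were seen). Gata1 had line means of 0.35 TPM at most and Klf1 of 0.84 TPM at most. In Renca, 3 of the 8 were higher and none lower, where 12.4% of all genes were higher. They were Tal1 (3.05, line mean 15.4 TPM), Epor (1.93, 12.8 TPM) and Zfpm1 (1.70, 14.9 TPM). Such counts were not particular to Renca. In MC38OVA 4 of the 8 were higher and none lower, against 10.2% of all genes higher. In MC38 3 were higher and none lower, against 8.24%. Car1, a carbonic anhydrase, and Rhag, a membrane protein, stayed under 1 TPM in all 30 libraries. The embryonic globin Hbb-y was listed at 0 in 26 libraries and Hbb-bh1 in 23. Hbb-bh1 was higher in CT26 (1.66), with a line mean of 2.62 TPM, and its mean in CT26NYESO1 was 1.33 TPM.

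Genes of the vessel wall did not follow haemoglobin across lines. In CMS5a 11 of 12 endothelial genes were higher, against 9.23% of all genes (Emcn 3.06, Cdh5 3.03, Plvap 2.39, Esam 2.22). In B16F10, with the highest mean haemoglobin share, none was higher and 9 of 12 were lower, against 23.2% of all genes (Pecam1 -2.73, Cdh5 -2.67, Plvap -2.28, Esam -2.23). The summed endothelial genes lay at 213 to 266 TPM in CMS5a, 216 to 316 TPM in Renca and 15.1 to 21.2 TPM in B16F10, and their r with haemoglobin was -0.08 over libraries and over line means. Platelet genes passed the filter in 4 of 12 cases, and in B16F10 Pf4 (-1.81) and Itga2b (-1.69) were lower. Of 10 leukocyte genes, 9 were lower in B16F10 and 1 higher (Arhgdib, 1.37), and 10 were lower in B16F1, where 23.2% and 13.2% of all genes were lower. In MC38OVA 9 were higher, against 10.2% of all genes, and in LL2 6, against 7.98%. Of 11 tested genes that handle haem and iron in macrophages, 3 were lower and none higher in B16F10 (Blvrb -2.09, Hp -1.81, Cd163 -1.69). That is little apart from all genes, of which 23.2% were lower (median log2 fold change -0.49 for the list, -0.48 for all genes). In CMS5a 1 was higher (Slc40a1, ferroportin, 1.41), against 9.23% of all genes. In B16F1 5 were lower and 1 higher, against 13.2% of all genes lower. In MC38OVA 4 were higher and 1 lower, against 10.2% higher. In EMT6 5 were higher and none lower, where 14.9% of all genes were called in either direction. The part of these other cells in the haemoglobin values was not tested.

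Genes most like Hbb-bs over the 30 libraries, other than the 8, included Aldh1a1 (Pearson's r of log2(TPM + 1) 0.84), Fam220a (0.78), Hbq1b (0.78), Hbq1a (0.71), Tent5c (0.69), Tmem218 (0.68), Apol11b (0.67) and Mir6236 (0.66). For comparison, r with Hbb-bs was 0.97 for Alas2, 0.73 for Slc4a1, 0.54 for Bpgm and 0.33 for Fech. Over deviations from line means, the nearest included Cd24a (0.73), Epcam (0.72), Mmp3 (0.71) and Aldh1a1 (0.71), then mt-Tn (0.70), mt-Tc, mt-Ta, mt-Tr and Dmp1 (0.68 each). 4 of these are mitochondrial tRNAs. Alas2 had Aldh1a1 (0.89) and Fam220a (0.84) among its nearest genes, and Slc4a1 had Hbq1a and Hbq1b (0.76 each). Nearest to Bpgm was Mkrn1 (0.85), and nearest to Fech were Copg1 (0.77), Phkb (0.74) and Tmf1 (0.74). These are descriptions over libraries that share a line in threes.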

How the data were processed

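The deposited values are TPM per gene symbol for 30 libraries of poly(A) RNA (TruSeq stranded mRNA, per the labels' protocols); the authors computed them with Trim Galore 0.6.5, STAR 2.7.3a and StringTie 2.1.2 on mm10, per the submitters' processing notes. The annotation, strand setting and handling of reads that fit several genes are not given in the sources used here. TPM sums to 1000000 in each library, so a change in 1 abundant group shifts all others, and depth is unknown. Groups are the lines in the sample titles. The members and gene lists were chosen with earlier results of these data known.

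From these values, log2(TPM + 1) was fitted for the 17944 genes that reached 1 TPM in 3 or more libraries, in limma 3.58.1 (R 4.3.3) with a mean-variance trend, 1 mean per line and 20 residual degrees of freedom. P-values were adjusted by Benjamini-Hochberg within each comparison; a call needed adjusted p under 0.05 and a log2 difference of 1. Fold changes are on the log2(TPM + 1) scale, which understates low genes. Alternatives were median-ratio scaling, rescaling without mitochondrial and globin transcripts, a pseudocount of 0.1, dropping the filter or the fold threshold, a replicate block, fits of single pairs and leaving out each library. Named list genes are up to 4 with the largest change among those called in a comparison, up to 3 of highest mean level, and defining genes at or near 0. Gene positions come from GENCODE M21, promoters from RefSeq. Ahsp was not analysed here, and a few list genes are not reported here.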

Additional observations from a re-analysis of the deposited data

How the results depend on the processing

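Of 47 called pairs of gene and comparison, 10 lost the call with at least 1 library left out and 7 under another alternative. Directions were compared for chosen differences only, and none of CT26NYESO1 against CT26 was among them. Of those compared, 1 changed direction, Slc4a1 in MC38 against the other 9 lines. It was 0.57 with all libraries and -0.36 without MC38 replicate 3 (adjusted p = 0.33 by limma), not called either way. Without MC38 replicate 1 it was 1.2 and called (adjusted p = 0.018 by limma). Small differences outside this set may also change direction. The 11 calls in the 3 pairs of lines fell to 7 under median-ratio scaling, rescaling without mitochondrial and globin transcripts, a pseudocount of 0.1 and no filter, and ranged from 7 to 13 with 1 library left out. The count for the difference between antigen pairs ranged from 0 to 3 with 1 library left out. The 8 red cell list genes higher in B16F10 became 13 under median-ratio scaling and ranged from 5 to 8 with 1 library left out. Median-ratio scaling moved the share of higher calls over all genes from 18.6% to 41.2% in B16F10, and from 21.7% to 41.7% in B16F10 against B16F1. The within-line SD of Slc4a1 went from 0.66 to 1.10 with a pseudocount of 0.1 and from 0.44 to 0.68 with 1 library left out. The haemoglobin share of MC38OVA was 0.225% without mitochondrial transcripts (0.173% with them). The Hbb-bt share difference by strain ranged from -1.56 to -1.22 points with 1 library left out. The cause of these changes was not tested.

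Same-numbered libraries of different lines did not deviate together on average. The mean correlation of deviations was 0.0043 over 135 same-numbered pairs (-0.47 to 0.42) and -0.0021 over 270 pairs with other numbers. Of these, 46 and 76 lay over 0.1. Such a mean cannot show whether some of the lines were paired. With a replicate block, the line calls stayed at 31 and the calls in pairs were 10, without Bpgm in MC38OVA against MC38 (-1.39, adjusted p = 0.054 by limma). The fit of only the 6 MC38 and MC38OVA libraries gave calls for all globins, but its prior spread had infinite weight, so the globins' own spread did not enter. With 3 libraries per line and unknown depth, a globin difference as large as -2.74 (Hba-a1 in MC38OVA against MC38) was not called.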
